A study of Mus musculus with 17 samples.

Results

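The transcriptome of GFP+-RPE cells was compared with that of central GFP–-RPE cells, using 12 of the 17 RNA-seq libraries of the study, 6 of each kind. Libraries were taken by their labels, GFP+ for the former and ctrl center for the latter, and the 5 libraries labelled ctrl periphery were left out. All cells came from Serpine3GFP/+ mice on a C57BL6/J background at 2 months of age, in which 1 of the Serpine3 alleles carries GFP followed by a terminator, so that both groups are heterozygous for Serpine3 and cells that use the gene fluoresce. Each library was made from a pool of 10 to 15 cells (per the sample labels; the study's methods give a lower range) that were picked by hand from trypsinized sheets of the retinal pigment epithelium (RPE). GFP+-RPE cells were picked from the peripheral part of the eyecup and central GFP–-RPE cells from the central part, so in this comparison GFP and position in the eye cannot be told apart. Mice 1, 2, 4, 5 and 7 gave a library of each kind, mouse 3 gave a GFP+-RPE library alone and mouse 6 a central library alone, and mouse 1 carries a pair of animal numbers and was taken as a pool of 2 animals.

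The RPE is a single layer of pigmented cells between the photoreceptors and the choroid. It regenerates the chromophore of the visual pigments, takes up shed outer segments, moves ions, glucose and lactate between blood and retina, and secretes proteins to both sides. Serpine3 belongs to the serpins, a family of proteins of which many inhibit proteases, and its use by a minority of peripheral RPE cells is the reason for the comparison. The question is which other genes set these cells apart from central RPE.

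Both groups carried RPE transcripts. Levels are given as CPM, counts brought to a common library size with TMM scaling, and are not corrected for gene length. Rpe65, the isomerase of the visual cycle, ranged from 3022 to 8382 CPM (median 4539) in GFP+-RPE and from 3571 to 10770 CPM (median 9486) in central GFP–-RPE. Rlbp1, which encodes the retinal carrier CRALBP, ranged from 2555 to 3741 CPM and from 2299 to 5816 CPM. Best1, an RPE chloride channel often used as a marker, was listed at 0 counts in all 6 GFP+-RPE libraries and at no more than 2 counts in any central library. Serpine3, whose transcript defines the cells picked, had 107 to 576 counts in GFP+-RPE against 0 in every central library.

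The libraries held 9896118 to 22467079 counts each. Genes reaching 10 counts numbered 9089 to 10231 in GFP+-RPE libraries, whereas central libraries had 5392 to 10450. The difference was within the spread of the pools (exact permutation test over 924 assignments, two-sided, p = 0.0952). Without central mouse 1 the exact permutation p was 0.0498 and without central mouse 2 it was 0.0130, and both of these libraries belong to the lower run of animal numbers (mice 1 to 3), in which central libraries had more genes (9723 and 10450) than in the other run (5392 to 8371). The 100 highest genes made up 44.9% ± 2.39 of a GFP+-RPE library and 59.7% ± 9.89 of a central one (SD, n = 6 each), with no overlap within either run (two-sided exact permutation test, p = 0.00433, and 0.0108 after Benjamini-Hochberg adjustment over 5 library measures). With the 13 mitochondrially encoded genes taken out, these shares were 41.2% ± 1.47 and 45.1% ± 5.63 (SD, n = 6 each) and the difference was within the spread (exact permutation p = 0.0931). In pooled cells, fewer cells using a gene and less of its RNA per cell cannot be told apart.

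Few differences passed the test, and most genes were not resolved. After removal of genes too low to be tested, 9286 genes were fitted with the quasi-likelihood test of edgeR, and log2 fold changes below are GFP+-RPE over central GFP–-RPE. The median of all genes was 0.001, with quartiles of −0.53 and 0.61. At a Benjamini-Hochberg adjusted p under 0.05, edgeR called 7 genes higher in GFP+-RPE (0.0754% of genes tested) and 1 lower (0.0108%), and at an adjusted p under 0.1 it called 33 higher (0.355%) and 80 lower (0.862%). For 77 genes every GFP+-RPE value exceeded every central one (0.829%), and for 33 the reverse held (0.355%). The biological coefficient of variation of the fit was 1.22. In counts simulated independently with the fitted scatter of each gene, the same test recovered 15.2% of genes changed 4-fold and 84.2% of those changed 64-fold. The bias-adjusted form of the test recovered 24.1% and 92.1%. These counts lacked the shared movement of genes between libraries described below, so recovery in the data may differ.

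What could be resolved depended on the level of the gene. Of 2387 genes with a mean under 10 CPM, none had a 95% interval of the log2 fold change within −1 and 1, against 111 of 5629 genes at 10 to 100 CPM, 587 of 1191 at 100 to 1000 CPM and 45 of 79 above that. In all, 743 of 9286 genes (8.00%) were held within a 2-fold range in this sense. They include some of the most abundant transcripts. Ttr, the carrier of retinol and thyroxine, had a log2 fold change of 0.28 (95% interval −0.21 to 0.77), and Ptgds, prostaglandin D synthase, one of −0.29 (−0.88 to 0.29). Cst3, the protease inhibitor cystatin C, had one of −0.20 (−0.65 to 0.26), and Bsg, the partner of the lactate transporters, one of 0.44 (−0.09 to 0.97). Trf, which encodes the iron carrier transferrin and is among the highest genes of GFP+-RPE, lay outside this range in part, at 18490 to 58630 CPM against 8539 to 37260 CPM (log2 fold change 0.90, 0.09 to 1.72, edgeR adjusted p = 0.726).

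**Figure D1:**
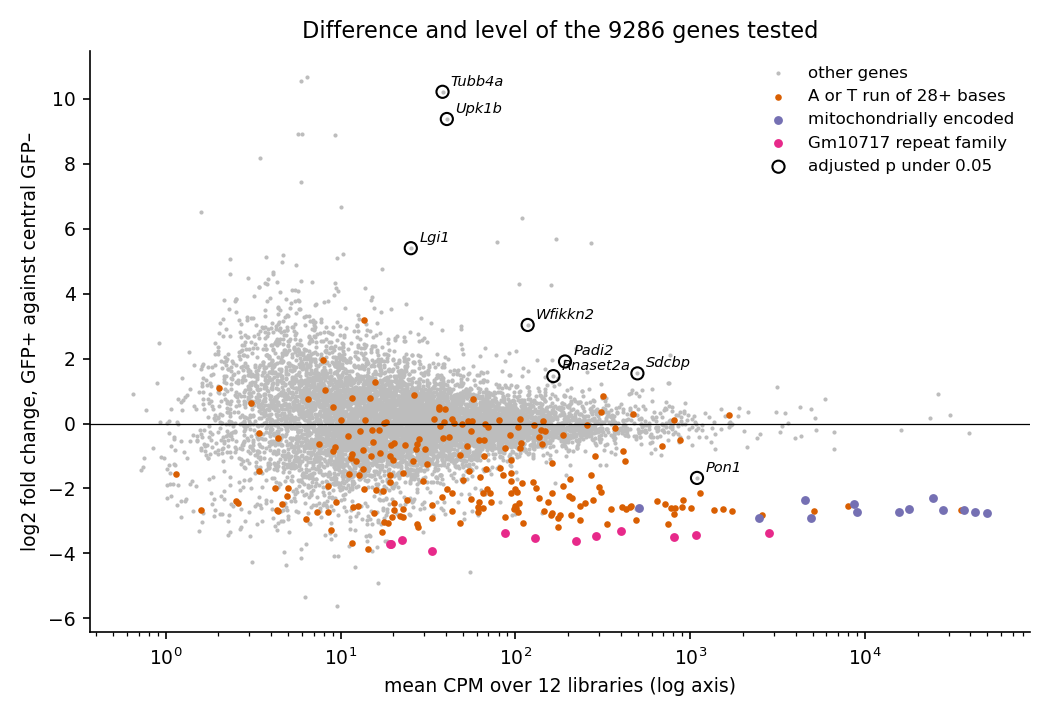
Log2 fold change of GFP+-RPE over central GFP–-RPE (vertical axis) against the mean CPM over the 12 libraries (log axis), 1 point per gene tested, coloured by gene class. The 8 genes at an adjusted p under 0.05 are circled and named; 3 classes described below (coloured) lie below the cloud of other genes (grey).

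The 7 genes called higher were Lgi1, Padi2, Rnaset2a, Sdcbp, Tubb4a, Upk1b and Wfikkn2. Tubb4a, a beta-tubulin best known from oligodendrocytes and neurons (chr17:57080066-57087782, GRCm38, minus strand), ranged from 24.1 to 149 CPM (median 69.9) in GFP+-RPE, where each library held 362 to 3258 counts, and had 4 counts in all 6 central libraries together. Upk1b, a tetraspanin of the urothelial plaque (chr16:38773184-38800328, minus strand), ranged from 11.5 to 154 CPM (median 79.4) in GFP+-RPE and had 6 counts in the central libraries together. The ratio of the summed, scaled counts was 1367 for Tubb4a (95% exact interval 534 to 5019, counting error only) and 1017 for Upk1b (467 to 2771). Both passed the test (edgeR adjusted p = 8.51e-05 and 0.00337).

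Lgi1, a secreted protein known from synapses and inherited epilepsy (chr19:38264536-38312214, plus strand), ranged from 8.58 to 93.0 CPM (median 50.2) in GFP+-RPE and from 0.32 to 1.99 CPM (median 1.23) in central GFP–-RPE. It was higher in GFP+-RPE in all 5 mice with both pools, by 2.86 to 5.80 on the log2(CPM + 1) scale, and the log2 fold change was 5.40 (SE 0.89, edgeR adjusted p = 0.0191). Wfikkn2, a secreted protein with protease-inhibitor domains that binds myostatin and related ligands (chr11:94235956-94246005, minus strand), ranged from 94.2 to 446 CPM (median 169) and from 11.4 to 39.2 CPM (median 24.1). Its log2 fold change was 3.04 (SE 0.46, edgeR adjusted p = 0.00982), and it was the 1 called gene among the 28 members tested of a list of the TGF-beta and BMP pathway (0.0754% of all genes were called higher). The median of that list was −0.25, beside 0.001 for all genes.

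The other called genes were abundant in both groups, with smaller and more even differences. Padi2, which converts arginine to citrulline in proteins, ranged from 256 to 339 CPM in GFP+-RPE and from 36.2 to 113 CPM in central GFP–-RPE, a log2 fold change of 1.91 (SE 0.29, edgeR adjusted p = 0.00982). Sdcbp, the scaffold protein syntenin, ranged from 580 to 1098 CPM and from 149 to 341 CPM, a log2 fold change of 1.55 (SE 0.27, edgeR adjusted p = 0.0255). Rnaset2a, a lysosomal ribonuclease, ranged from 180 to 272 CPM and from 63.7 to 123 CPM (log2 fold change 1.46, SE 0.27, edgeR adjusted p = 0.0431), and its near copy Rnaset2b had a log2 fold change of 1.22 (SE 0.30, adjusted p = 0.0787). How reads were shared between the 2 copies is not stated, so the values of each are uncertain.

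Pon1, a paraoxonase that hydrolyses oxidized lipids and travels with high-density lipoprotein (chr6:5168090-5193946, minus strand), was the gene called lower. It ranged from 357 to 719 CPM (median 503) in GFP+-RPE and from 963 to 2743 CPM (median 1544) in central GFP–-RPE. The ranges did not overlap, and the log2 fold change was −1.68 (SE 0.28, edgeR adjusted p = 0.0191). All 5 mice that gave both pools had less in GFP+-RPE, with differences of −0.97 to −1.93 on the log2(CPM + 1) scale.

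The calls rested on single libraries to different degrees. Padi2, Tubb4a, Upk1b and Wfikkn2 were called by edgeR whichever of the 12 libraries was left out, while Lgi1, Pon1, Rnaset2a and Sdcbp were lost in some: only the former 4 of the 8 were called without GFP+ mouse 1, 3, 5 or 7 or without central mouse 6, and without GFP+ mouse 2 Lgi1 was called besides them. Rnaset2a was lost also without GFP+ mouse 4 or central mouse 1, 4 or 7, and Sdcbp without central mouse 4 or 5. Pon1, the 1 gene called lower, thus lost its call without any of 6 libraries. DESeq2 called all 8, whereas limma voom did not call Lgi1, Upk1b and Wfikkn2 (adjusted p = 0.194, 0.131 and 0.292), and within mice 4 to 7 edgeR called none of the 8. With the mouse as a block, which pairs the pools of an animal, edgeR called 9 genes higher and 73 lower, of which 67 are in the 3 gene classes described below. Padi2, Pon1, Sdcbp, Tubb4a and Upk1b kept their call, whereas Lgi1 (adjusted p = 0.109), Rnaset2a (0.109) and Wfikkn2 (0.0520) did not pass, and Bcan, Htr3a, S100a16, Tprkb and Upk3b were called in addition.

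Besides Tubb4a and Upk1b, another 8 genes had at least 10 counts in every GFP+-RPE library and at most 3 in every central library, and 0 genes had the reverse pattern. These were Akr1b10, C2, Ecrg4, Mapk13, Mpp3, Rasip1, Serpine3 and Zfp790. The limits are in raw counts. In GFP+-RPE libraries 3 counts stood for 0.11 to 0.23 CPM, and in central libraries for 0.16 to 0.65 CPM. At the same CPM, central libraries thus tended to stay at or below 3 counts more easily and to reach 10 less easily. The pattern and its reverse were therefore not equally easy to meet, and the part of this in their counts was not tested. None of the 8 passed an adjusted p of 0.05, and all had an adjusted p under 0.1 (edgeR with Benjamini-Hochberg adjustment). With the 3 gene classes described below taken out, the edgeR adjusted p was 0.0494 for Akr1b10 and Zfp790 and 0.111 for C2 and Rasip1. Serpine3, Mapk13 and Ecrg4 stayed under 0.1 in that fit, and Mpp3 had no value. DESeq2 called all 8, at adjusted p from 2.13e-17 to 7.22e-05, and limma voom called all but Mpp3 and Rasip1. All 8 were picked for their separation in these same counts, and Serpine3 carries the reporter used to pick the cells. The p-values of these genes are therefore not separate support. Serpine3 ranged from 5.96 to 21.2 CPM and Ecrg4, which encodes the secreted peptide precursor augurin, from 6.27 to 18.4 CPM, and both had 0 counts in all central libraries. Against a floor of 3 counts per central library, their means were at least 37.1-fold and at least 40.3-fold higher in GFP+-RPE.

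The other members of this group had 1 to 5 counts in the central libraries together. C2, the complement protease, ranged from 3.69 to 23.5 CPM, with a ratio of 164 (95% exact interval 70.1 to 506, counting error only). Akr1b10, a reductase of aldehydes and retinal, ranged from 6.09 to 22.3 CPM (ratio 801, interval 144 to 31670), and Mapk13, the delta isoform of p38 kinase, from 2.39 to 20.0 CPM (ratio 790, interval 142 to 31210). Mpp3, a scaffold protein of cell polarity, was more scattered, from 0.62 CPM in mouse 2 to 38.4 CPM in mouse 7 (ratio 573, interval 158 to 4735). Rasip1, a regulator best known from endothelium, ranged from 0.77 to 8.70 CPM, and Zfp790, a zinc finger protein, from 4.05 to 11.4 CPM.

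**Figure D2:**
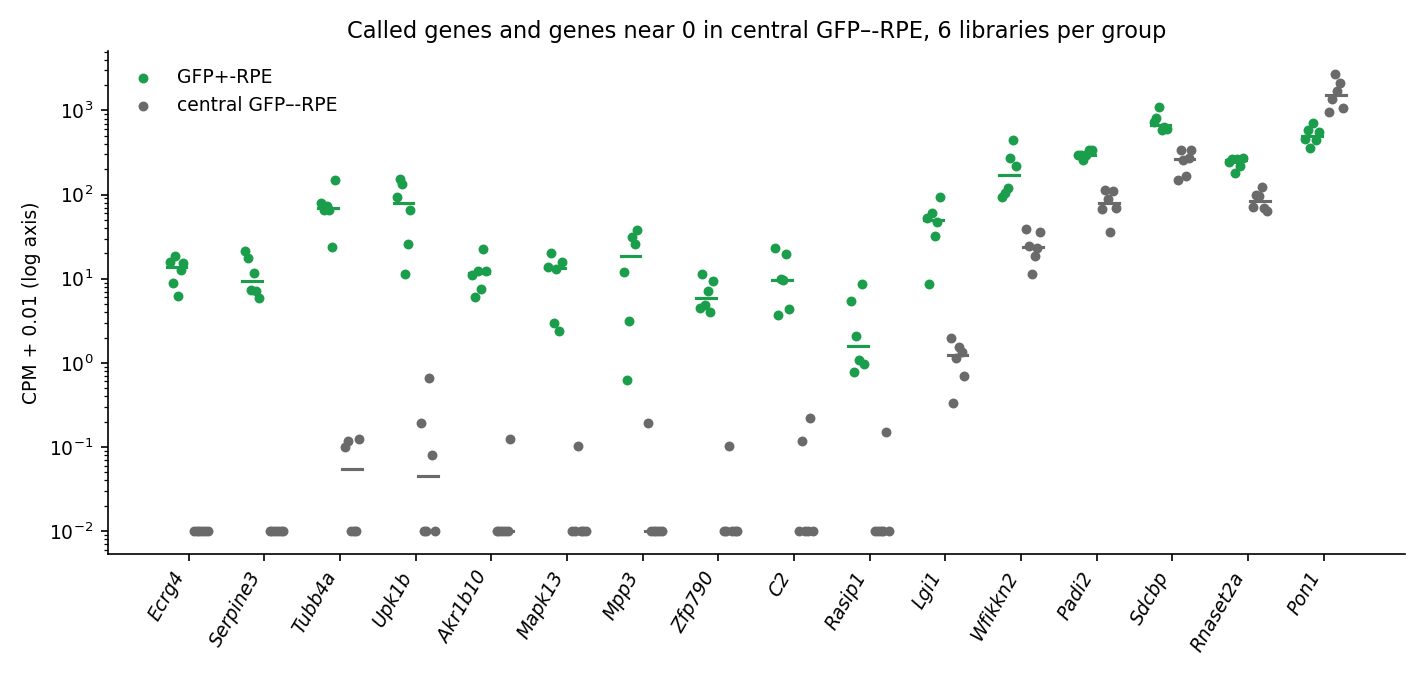
CPM + 0.01 (log axis) of the 8 called genes and of the genes with at least 10 counts in all GFP+-RPE and at most 3 in every central library, 1 point per library (6 per group, GFP+-RPE green, central GFP–-RPE grey), with the group median as a bar. Points at the lower edge are libraries with 0 counts; Pon1, on the right, is the 1 gene with its grey points above the green ones.

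The sequence before the start of 4 of these genes is shown, since Serpine3, Ecrg4 and Zfp790 were near 0 in the central pools and Pon1 was the gene called lower. The reference (RefSeq, GRCm38.p6) gives for Serpine3 chr14:62663417-62663666 on the plus strand, for Ecrg4 chr1:43730352-43730601 on the plus strand, for Zfp790 chr7:29815822-29816071 on the plus strand and for Pon1 chr6:5193947-5194196 on the minus strand, each the 250 bases before the start. Capitals mark the letters TAATCC, a core bound by OTX factors, on either strand.
Serpine3: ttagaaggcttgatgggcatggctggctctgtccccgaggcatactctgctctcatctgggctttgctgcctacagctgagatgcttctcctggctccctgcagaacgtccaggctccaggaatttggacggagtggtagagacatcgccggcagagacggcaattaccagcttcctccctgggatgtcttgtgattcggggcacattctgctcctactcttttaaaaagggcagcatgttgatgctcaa
Ecrg4: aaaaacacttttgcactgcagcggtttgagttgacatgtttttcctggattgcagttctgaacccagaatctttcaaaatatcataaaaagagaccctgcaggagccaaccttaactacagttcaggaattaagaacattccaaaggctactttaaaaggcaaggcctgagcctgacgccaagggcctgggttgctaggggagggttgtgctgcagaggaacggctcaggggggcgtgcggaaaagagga
Zfp790: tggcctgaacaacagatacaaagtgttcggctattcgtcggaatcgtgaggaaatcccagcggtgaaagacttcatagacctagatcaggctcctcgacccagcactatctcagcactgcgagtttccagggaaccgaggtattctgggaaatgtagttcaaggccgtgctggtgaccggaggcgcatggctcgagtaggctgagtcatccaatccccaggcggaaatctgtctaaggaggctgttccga
Pon1: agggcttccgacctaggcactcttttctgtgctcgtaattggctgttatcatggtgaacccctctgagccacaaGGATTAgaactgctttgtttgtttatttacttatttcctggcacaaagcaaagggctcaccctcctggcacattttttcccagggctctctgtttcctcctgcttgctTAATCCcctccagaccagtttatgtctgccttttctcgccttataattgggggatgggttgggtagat
Pon1 holds the letters in both orientations, and the windows of Serpine3, Ecrg4 and Zfp790 do not hold them. Over all 32851 entries of the promoter table, 6.25% hold TAATCC on either strand. Of 16 genes looked up (the called genes and those near 0 in central libraries), 12 had an entry, and Pon1 was the 1 with a match. The E-box letters CATGTG and CACGTG, of the kind bound by MITF, were in 0 of the 12, beside 12.3% and 6.02% of all entries. Otx2 itself was at 486 to 821 CPM in GFP+-RPE against 466 to 704 CPM in central GFP–-RPE (log2 fold change 0.14, 95% interval −0.30 to 0.58), and Mitf at 32.7 to 93.6 CPM and 9.59 to 143 CPM (−0.09, −1.15 to 0.98).

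Upk3b, Htr3a and Bcan were among the genes higher at an adjusted p under 0.1. With the 3 gene classes described below taken out, 14 genes were higher at this limit in place of 33. Upk3b and Bcan were then at an edgeR adjusted p of 0.168 and 0.209. Upk3b, another uroplakin, ranged from 192 to 435 CPM in GFP+-RPE and from 0 to 37.3 CPM in central GFP–-RPE, where 5 libraries were under 1 CPM. Htr3a, a subunit of the serotonin-gated channel, ranged from 240 to 751 CPM and from 0 to 37.3 CPM, and Bcan, the proteoglycan brevican, from 74.3 to 237 CPM and from 0 to 18.8 CPM. Central mouse 4 held most of the central counts of Upk3b and central mouse 1 those of Bcan, while for Htr3a central mice 2 and 4 were at 28.4 and 37.3 CPM and the other central libraries at 0.11 CPM or less. The fitted log2 fold changes were 5.69 (SE 1.43, edgeR adjusted p = 0.0826), 5.57 (SE 1.30, adjusted p = 0.0729) and 5.59 (SE 1.44, adjusted p = 0.0983). Upk3bl, the third uroplakin tested, was at 33.0 to 135 CPM and 17.2 to 116 CPM (log2 fold change 0.46, adjusted p = 1.00).

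The genes that follow were also under an adjusted p of 0.1 with all genes fitted and were chosen after their values were seen. Capn6, a calpain without protease activity, was at 121 to 295 CPM in GFP+-RPE against 0 to 28.7 CPM in central GFP–-RPE. Thbs4, a thrombospondin of the matrix, was at 126 to 356 CPM and 7.15 to 107 CPM, and Gpc3, a glypican that binds Hedgehog ligands, at 232 to 610 CPM and 42.7 to 238 CPM. App, the amyloid precursor protein, was at 697 to 1000 CPM and 251 to 599 CPM, with a log2 fold change of 1.08 (SE 0.24, edgeR adjusted p = 0.0729). Degs1, which makes ceramide, was at 971 to 1347 CPM and 187 to 614 CPM (log2 fold change 1.24, SE 0.28), and Smpdl3a, a phosphodiesterase related to sphingomyelinase, at 142 to 243 CPM and 68.8 to 129 CPM (1.18, SE 0.28), both at an edgeR adjusted p of 0.0729. Slc4a5, a sodium bicarbonate transporter, was at 388 to 845 CPM and 182 to 412 CPM (1.03, SE 0.26, adjusted p = 0.0970).

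Pigment genes had positive values for the most part. Trpm1, the melastatin channel, was at 6.91 to 44.8 CPM in GFP+-RPE against 0 to 0.65 CPM in central GFP–-RPE. Its edgeR adjusted p was 0.0733, and 0.168 with the 3 gene classes described below taken out. Gpnmb, a melanosome and lysosome glycoprotein, was at 132 to 746 CPM and 0.11 to 36.5 CPM (log2 fold change 4.26, SE 0.91, edgeR adjusted p = 0.0729 with all genes fitted). Slc45a2, a melanosome transporter, was at 14.4 to 69.7 CPM and 0 to 10.1 CPM (3.45, SE 1.46, edgeR adjusted p = 0.712). Of 18 pigment genes tested, 12 had a positive log2 fold change, 5 of them above 1, with 0 called by edgeR (6 at an unadjusted p under 0.05, 3 by DESeq2 and 1 by limma voom, beside 5.8%, 4.41% and 0.248% of all genes), and the list median was 0.50 beside 0.001 for all genes.

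The genes with low values in GFP+-RPE were of another make-up. Of the 80 genes at an adjusted p under 0.1, 71 (88.8%) belonged to 3 classes that hold 243 of the 9286 genes tested: 13 are mitochondrially encoded, 8 are members of a family of 12 predicted genes with shared sequence (Gm10717 and relatives), and 50 have a transcript with an unbroken run of at least 28 A or T. None of the 33 higher genes at this limit was in these classes. The classes were drawn up after these values were seen, so the counts are a description. At an unadjusted p under 0.05, the classes held 140 of 340 lower genes and 1 of 199 higher ones. The count of 80 depended on the libraries: it was 1 without GFP+ mouse 1, 3, 4 or 7 or without central mouse 5 or 7, 3 without GFP+ mouse 2, and 68 to 111 without any of the others. So did the count of 33 higher genes. It was 6 without GFP+ mouse 1, 4 or 7, and 7 without GFP+ mouse 3 or central mouse 5. Without GFP+ mouse 2 or central mouse 7 it was 11, and without any of the others 29 to 90. With robust estimation in edgeR, whose fold changes are the same, 15 higher and 2 lower genes were at this limit, and limma voom placed 2 genes of the classes there, 1 of them higher and 1 lower. Within mice 1 to 3 the class medians were −2.30 for mitochondrially encoded genes, −4.01 for the Gm10717 family and −1.02 for long-run genes, and within mice 4 to 7 they were −2.39, −3.12 and −1.89.

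All 13 mitochondrially encoded genes had a log2 fold change below −1, with a median of −2.66. They encode core subunits of the respiratory chain and the ATP synthase. mt-Nd5, a subunit of complex I, was at 195 to 5612 CPM in GFP+-RPE against 5688 to 35660 CPM in central GFP–-RPE. It was the 1 of the 13 without overlap (0.355% of all genes were apart in this direction). mt-Co3, a subunit of cytochrome oxidase, was at 996 to 28980 CPM (median 13610) and 21390 to 207100 CPM (median 69250), a log2 fold change of −2.74 (SE 0.64, edgeR adjusted p = 0.0729). The 78 nuclear genes of the same complexes did not share this size: their median was −0.16, 56 were below 0, none was below −1 and 0 were called by edgeR (2 at an unadjusted p under 0.05, 0 by DESeq2 and 1 by limma voom). Over all genes, the shares at these 3 limits were 5.8%, 4.41% and 0.248%.

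All 12 members of the Gm10717 family were below −1, with a median of −3.51. Gm10800 was at a median of 538 CPM in GFP+-RPE against 2385 CPM in central GFP–-RPE, and Gm10718 at 190 and 785 CPM. Their transcripts share stretches of sequence, so reads may be split among them and the 12 are not separate measurements. The family took 0.121% ± 0.0711 of counts in GFP+-RPE against 0.846% ± 1.07 (SD, n = 6 each) in central GFP–-RPE (exact permutation test, two-sided, p = 0.0217, adjusted 0.0271 over 5 measures). The highest share, 2.89%, was in central mouse 1.

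The 218 genes tested with a run of at least 28 A or T had a median log2 fold change of −1.77, and 137 of them (62.8%) were below −1. Ddx23, a helicase of the spliceosome (chr15:98645134-98662894, minus strand), has a run of 40 and was the highest of them in CPM: it was at 2757 to 18540 CPM (median 8924) in GFP+-RPE against 11050 to 200000 CPM (median 31600) in central GFP–-RPE. Its log2 fold change was −2.67 (SE 0.63, edgeR adjusted p = 0.0729). Olfr157, an odorant receptor, has a run of 39 and was at a median of 1286 CPM in GFP+-RPE against 4426 CPM in central GFP–-RPE. Plau, the urokinase protease, has a run of 38 and was at 593 and 2057 CPM.

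Medians were lower for longer runs. For genes with runs under 8 the median log2 fold change was 0.07, and it was −0.09 at 20 to 23 bases, −0.22 at 24 to 27, −1.13 at 28 to 30, −2.08 at 31 to 35 and −2.44 at 36 or more, with 3084, 374, 247, 125, 45 and 48 genes. Some genes with long runs were near 0. Trpm3, an ion channel that hosts a microRNA much used by the RPE, has a run of 31 and was at 1645 to 2064 CPM in GFP+-RPE against 1201 to 2019 CPM in central GFP–-RPE (log2 fold change 0.26, 95% interval −0.15 to 0.67). Car12, a carbonic anhydrase, has a run of 35 and was at 210 to 460 CPM and 125 to 393 CPM (0.37, −0.23 to 0.96). Runs were read from the GENCODE M21 transcripts and were found for 9168 of the genes tested. Libraries were made from polyadenylated RNA, and the part of such runs in the difference was not tested.

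**Figure D3:**
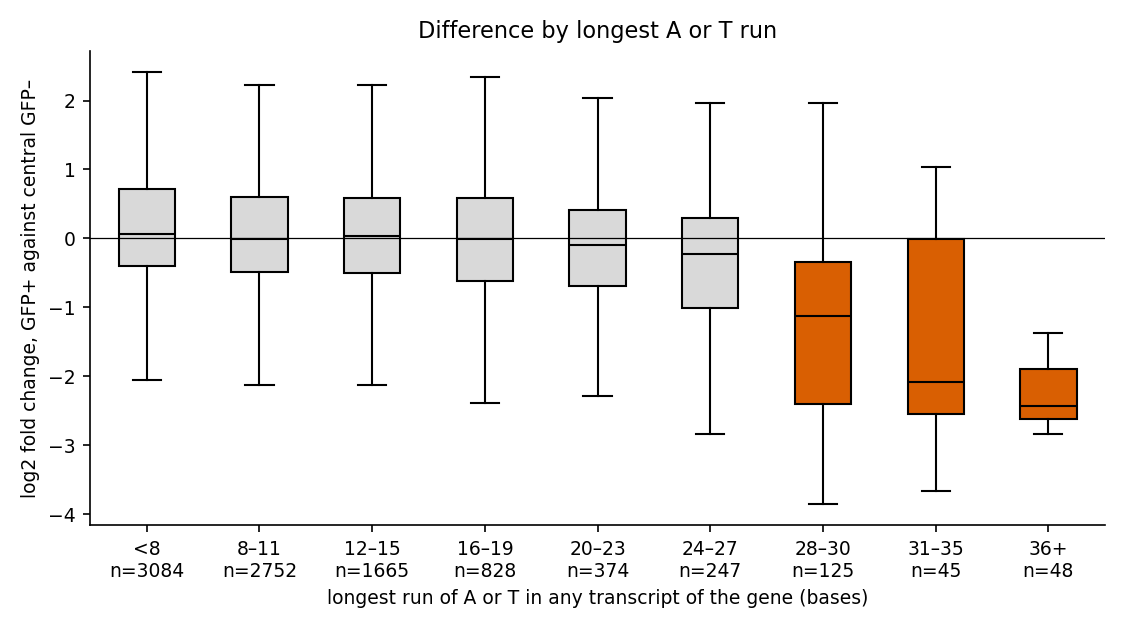
Log2 fold change of GFP+-RPE over central GFP–-RPE by the longest run of A or T in any transcript of the gene. Boxes give the median and quartiles and whiskers reach to 1.5 box lengths; boxes of runs of 28 bases or more are orange, and their medians lie between −1.13 and −2.44 while those of shorter runs lie between −0.22 and 0.07.

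These genes moved together from library to library. Of 3507 genes with at least 5 counts in each of the 12 libraries, 73 had a Pearson correlation with Ddx23 above 0.98 on the log2(CPM + 1) scale over the 12 libraries, and 58 of the 73 have a run of at least 28. The value was 0.9997 for Olfr157, against 0.951 for mt-Co3 and 0.617 for Pon1. Points share the library and its scaling, and the values describe these 12 libraries. Several genes of eye or neural interest were in this company: Cldn19, the main claudin of RPE tight junctions in other species, at 0.998, Tfap2a, a transcription factor of amacrine cells, at 0.989, Sox11, a transcription factor of progenitor cells, at 0.982, Grik4, a kainate receptor subunit, at 0.985 and Mc1r, the melanocortin receptor, at 0.981. Cldn19 was at 11.5 to 73.0 CPM in GFP+-RPE against 53.6 to 1024 CPM in central GFP–-RPE, and its log2 fold change of −2.92 (SE 0.66, edgeR adjusted p = 0.0729) lay within 1 SE of that of Ddx23.

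Long-run genes made up 3.69% ± 1.39 of a GFP+-RPE library and 9.07% ± 5.82 of a central one (SD, n = 6 each; exact permutation test, two-sided, p = 0.00866, adjusted 0.0144 over 5 measures). The groups did not overlap within either run of animal numbers, at 2.11% to 3.95% against 4.00% and 6.79% in mice 1 to 3, and 3.28% to 5.78% against 5.83% to 20.0% in mice 4 to 7. The 3 classes together took 2.83% to 23.1% in GFP+-RPE against 17.8% to 68.5% in central GFP–-RPE, with the highest value in central mouse 5. Without that library, the class medians were −2.18 for mitochondrially encoded genes, −3.12 for the Gm10717 family and −1.16 for long-run genes.

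The TMM factor, which sets the scale of each library, moved with these shares. It was 1.16 to 1.30 in GFP+-RPE against 0.47 to 1.19 in central GFP–-RPE, and 0.90 to 1.14 in all 12 libraries once the 3 classes were taken out before scaling. With the classes taken out, 9041 genes were tested, and edgeR called all of the 8 genes again with Akr1b10, Tyrp1 and Zfp790 in addition. At an adjusted p under 0.1, 2 genes were then lower. Of the 80 before, 71 were in the classes taken out and could not be counted again, and 9 lay outside. Higher genes at this limit were 14, in place of 33.

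**Figure D4:**
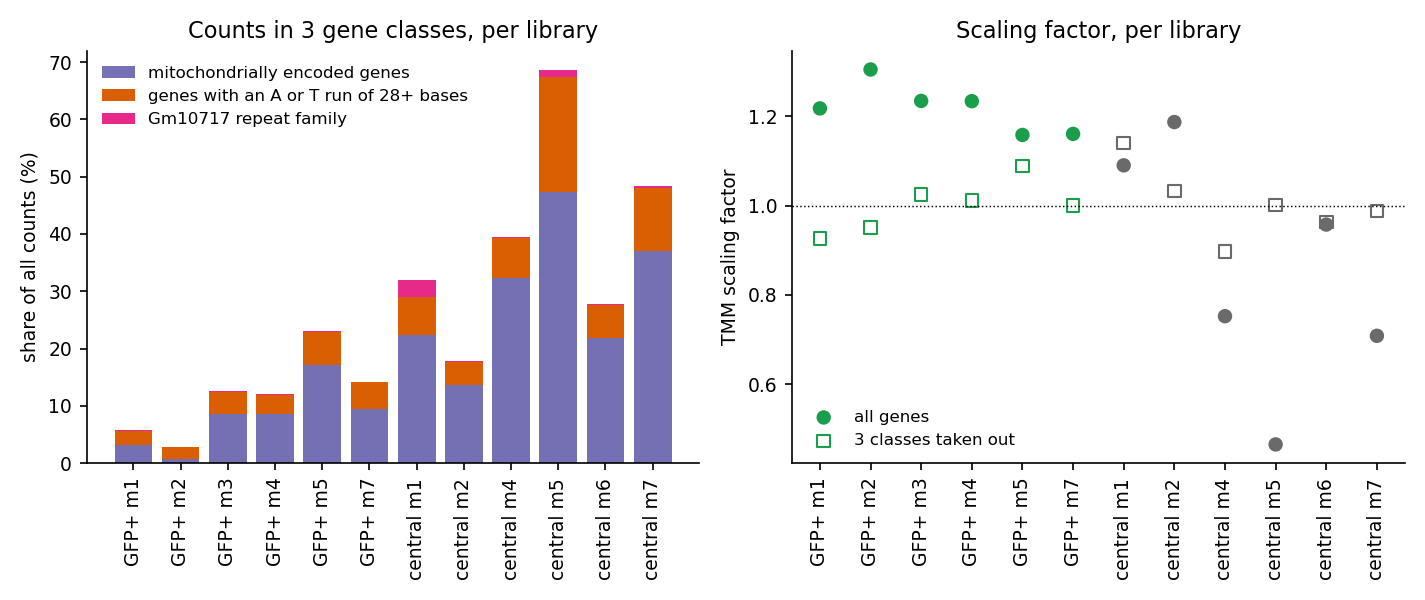
Left, share of all counts (%) in mitochondrially encoded genes, genes with an A or T run of at least 28 bases and the Gm10717 family, stacked, for each of the 12 libraries (m, mouse). Right, TMM factor of each library with all genes (filled circles, GFP+-RPE green, central GFP–-RPE grey) and with the 3 classes taken out (open squares); the stacks reach 23.1% in GFP+-RPE against 68.5% in central GFP–-RPE, and the open squares lie between 0.90 and 1.14.

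Outside the classes, 9 genes were lower at an adjusted p under 0.1 with all genes fitted. With the classes taken out, 2 genes were lower at this limit, so most of the 9 did not keep it. In that fit Pon1 was at an edgeR adjusted p of 0.00634, Trhde at 0.111 and Gm20594 at 0.209. Nova1, Agap2, Tnfrsf14 and Lratd1 were among those that followed Ddx23 (correlation of 0.994 to 0.999). Trhde, an ectoenzyme that cleaves thyrotropin-releasing hormone, was at 0 to 11.2 CPM (median 2.74) in GFP+-RPE against 53.5 to 207 CPM (median 96.9) in central GFP–-RPE. Its difference within a mouse was −3.32 or further below 0 in all 5 mice on the log2(CPM + 1) scale, and it had a log2 fold change of −4.58 (SE 1.04, edgeR adjusted p = 0.0729). Jam3, a junctional adhesion molecule, was at 29.4 to 103 CPM and 99.7 to 486 CPM (−1.82, SE 0.44, adjusted p = 0.0744), and Crim1, a transmembrane protein that binds BMPs, at 358 to 579 CPM and 622 to 1206 CPM (−0.97, SE 0.23, adjusted p = 0.0729). The others are Gm20594, at 0.67 to 25.3 CPM and 30.1 to 237 CPM, and Pon1.

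The differences between pools of the same animal had a like make-up. In the 5 mice with both pools, 120 genes were higher in GFP+-RPE by more than 1 on the log2(CPM + 1) scale in every mouse (1.29% of genes tested) and 138 were lower (1.49%). In single mice, 15.7% (mouse 2) to 48.2% (mouse 5) of genes were above 1, and 18.7% to 22.9% were below −1. The median of all genes ranged from −0.083 in mouse 2 to 0.837 in mouse 5. The 2 directions thus did not start from equal shares. All 120 higher genes lay outside the 3 classes. Of the 138 lower ones, 105 lay inside: 13 of 13 mitochondrially encoded genes, 12 of 12 of the Gm10717 family and 80 of 218 long-run genes, against 33 of 9043 other genes. Ranked by the smallest of their 5 differences, the higher genes were led by Tubb4a at 4.65, then came 3.84 for Tyrp1, 3.64 for Upk1b, 3.63 for Htr3a, 3.59 for Bcan and 3.25 for Upk3b. Rp2, a GTPase activator of photoreceptor and ciliary traffic, came next at 3.25 to 4.47 over the mice, and Cxxc5, a Wnt pathway regulator, was at 2.80 to 4.79.

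The functions of the RPE were examined by lists, of which each is given by its counts and median beside the median of 0.001 for all genes. None of the members named in the next 3 paragraphs passed an adjusted p of 0.05 in edgeR, while DESeq2 called Slc4a5, Cldn19, Jam3 and Rpl22 among the lists given there and limma voom called Lrat. Of 11 visual cycle genes, 4 had a positive and 7 a negative log2 fold change, with a median of −0.11 and none beyond 1 in either direction. Lrat, which makes retinyl esters, was at 788 to 1451 CPM in GFP+-RPE against 1230 to 2223 CPM in central GFP–-RPE (−0.79, 95% interval −1.27 to −0.31, edgeR adjusted p = 0.174, limma voom adjusted p = 0.0199), and Rpe65 had a log2 fold change of −0.78 (−1.40 to −0.16, adjusted p = 0.542). Rgr, an opsin of the RPE, was at 18520 to 32060 CPM and 14550 to 36330 CPM (0.16, −0.38 to 0.69). Stra6, the retinol receptor, had a log2 fold change of 0.20 (−0.31 to 0.71).

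Uptake of outer segments was covered by 11 genes, with a median of 0.59. The receptor Mertk was at 25.4 to 111 CPM in GFP+-RPE against 96.6 to 196 CPM in central GFP–-RPE (−0.87, 95% interval −1.65 to −0.08), and the integrin subunit Itgav at 329 to 549 CPM and 484 to 770 CPM (−0.63, −1.08 to −0.17). The ligands went the other way in value: Mfge8 had a log2 fold change of 1.29 (−0.87 to 3.44) and Gas6 one of 0.65 (−0.76 to 2.06). Of 16 ion channels and transporters, 11 were above 0 (median 0.18), and Kcnj13, the apical potassium channel, was at −0.72 (−1.36 to −0.08). Of 26 junction and polarity genes, 12 were above 0 and 14 below (median −0.25). Cldn19 and Jam3, given above, were lower at an adjusted p under 0.1, as were 0.862% of all genes.

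All 11 genes tested of the unfolded protein response had a positive log2 fold change (median 0.64). Of these, 0 were called by edgeR (1 at an unadjusted p under 0.05, 0 by DESeq2 or limma voom, beside 5.8%, 4.41% and 0.248% of all genes). Hspa5, the main chaperone of the endoplasmic reticulum, was at 274 to 2082 CPM (median 756) in GFP+-RPE against 51.2 to 975 CPM (median 454) in central GFP–-RPE (1.24, 95% interval 0.09 to 2.39, edgeR adjusted p = 0.757), and Ddit3, which encodes CHOP, at 17.5 to 54.1 CPM and 0 to 42.5 CPM (1.52, −0.96 to 3.99). Of 12 basement membrane genes, 10 were positive (median 0.49), and of 28 lysosome genes, 21 (median 0.27). Cytosolic ribosomal proteins were negative in 70 of 80 (median −0.30), and Rpl22 was the 1 of the 80 without overlap (0.355% of all genes), at 26.1 to 32.7 CPM and 39.4 to 119 CPM. The lowest central value was 0 CPM for Atf4 and Ddit3 and 6.97 CPM for Calr, against 21.8, 17.5 and 244 CPM in GFP+-RPE.

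**Figure D5:**
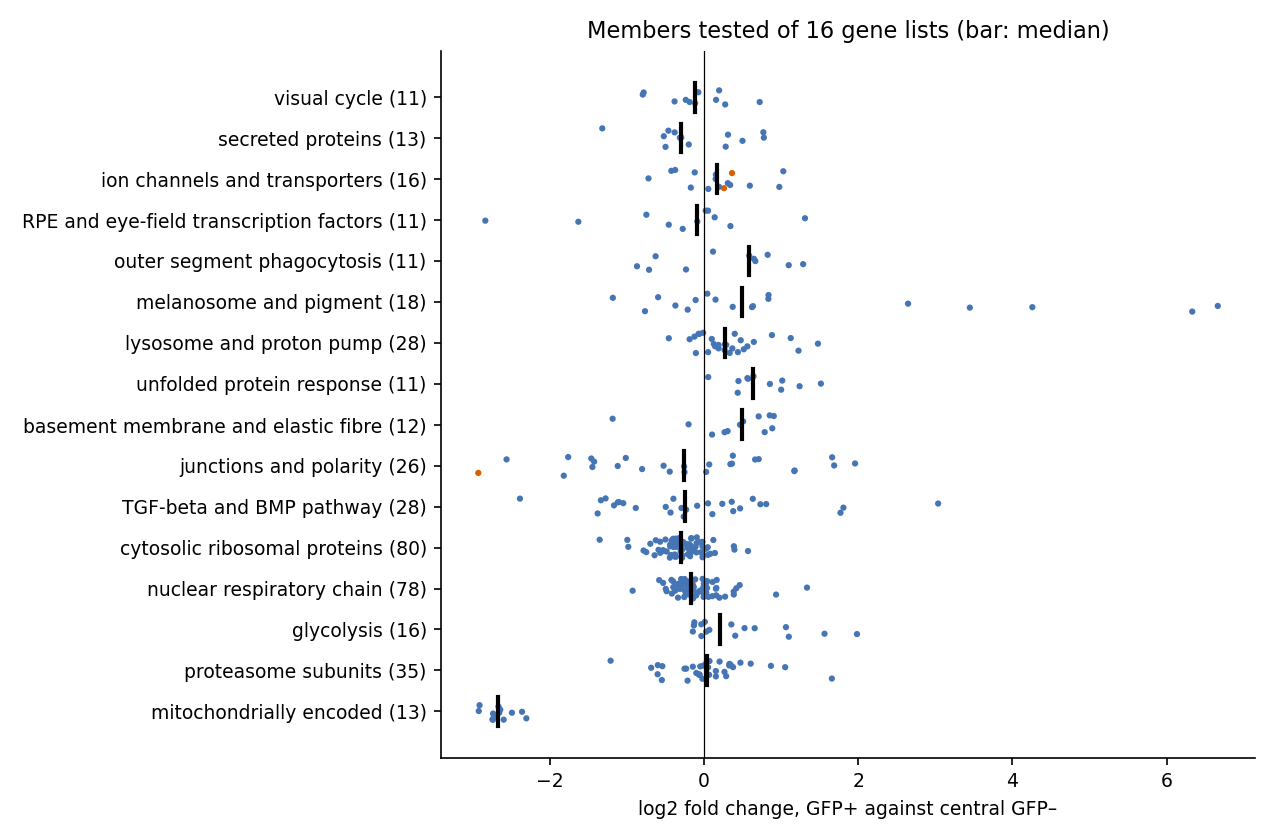
Log2 fold change of GFP+-RPE over central GFP–-RPE for the members tested of 16 gene lists (number in parentheses), 1 point per gene with the list median as a bar; long-run genes are orange. The median of the 13 mitochondrially encoded genes lies below that of every nuclear list shown, though Cldn19 of the junction list lies as low as these genes. The 11 unfolded protein response genes lie above 0, and the 11 visual cycle genes lie within 1 of 0.

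No regulator of position or lineage that was tested passed an adjusted p of 0.1 in edgeR, and DESeq2 called Sox11, Epha5 and Wnt4 lower, at adjusted p = 0.00774, 0.0302 and 0.000887. Of 11 RPE and eye-field transcription factors, 5 were above and 6 below 0 (median −0.09). Of these, 0 were called by edgeR (1 at an unadjusted p under 0.05, 1 by DESeq2 and 0 by limma voom, beside 5.8%, 4.41% and 0.248% of all genes). Lhx2 was at 0.02 (95% interval −0.71 to 0.76), Six3 at 0.05 (−0.65 to 0.76) and Sox9 at −0.27 (−0.85 to 0.31). Of 24 genes of dorsal-ventral or nasal-temporal position, 8 could be tested, and Epha5, an ephrin receptor, was at 0.05 to 3.32 CPM in GFP+-RPE against 1.13 to 28.4 CPM in central GFP–-RPE (edgeR adjusted p = 0.738). Among 16 Wnt pathway genes, Wnt4 was the 1 whose groups did not overlap (0.355% of all genes were apart in this direction), at 0.19 to 1.93 CPM and 2.18 to 23.1 CPM (adjusted p = 0.485).

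Markers of other cell types differed in level from list to list. The 7 Mueller glia markers summed to 581 to 749 CPM in GFP+-RPE against 443 to 697 CPM in central GFP–-RPE, and Glul, glutamine synthetase, gave 579 to 740 CPM and 441 to 693 CPM of this. The 10 markers of ciliary margin and iris epithelium summed to 262 to 408 CPM and 313 to 914 CPM, most of it Bmp4, at 202 to 305 CPM and 277 to 817 CPM (edgeR adjusted p = 0.279). Of 15 macrophage and microglia markers, Ptprc, C1qa, C1qb, Tyrobp, Fcer1g and Lyz2 were at 0 counts in all 12 libraries, and Csf1r made up most of the list's sum, which was 35.9 to 104 CPM in GFP+-RPE against 68.3 to 137 CPM in central GFP–-RPE. The 12 endothelial markers summed to 8.05 to 26.0 CPM and 0.34 to 16.5 CPM, with Cldn5 at 0 in all libraries. The 12 markers of choroid stroma and mural cells summed to 146 to 543 CPM and 3.05 to 336 CPM, nearly all of it Acta2, with Col1a2 and Col3a1 at 0. The 19 photoreceptor markers summed to 88.9 to 166 CPM and 127 to 283 CPM, of which Rom1 gave 59.5 to 119 CPM and 39.7 to 218 CPM. Of the 4 photoreceptor markers tested, Pde6a is a long-run gene with a correlation of 0.979 with Ddx23. The median log2 fold change of this list was −0.402 with Pde6a and 0.005 without it. The part of these cells in the differences above was not tested.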

How the data were processed

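Per the labels, the libraries were SMART-Seq mRNA LP libraries of hand-picked RPE cells, and groups and mouse numbers came from the labels. The authors deposited counts per gene symbol as whole numbers, without normalization, and they were treated as estimated counts. The submitters' processing notes name fastp, Salmon and GRCm38.p6, with no role or version, and the annotation and the use of strand are not given in the sources used here. Without strand, overlapping genes cannot be told apart, and PCR copies were counted without molecular identifiers, so floors and intervals of counts cover counting error only. Of the 17 columns, 12 were used here and 0 were without a sample. Positions and runs of A or T came from GRCm38 with GENCODE M21, in which 21853 of 22253 symbols were found.

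Genes were filtered by edgeR's default, scaled by TMM and tested with edgeR (version 4.0.16, R 4.3.3) by the quasi-likelihood test with default settings on the 12 libraries alone, with Benjamini-Hochberg adjustment over all 9286 genes. The study's methods name DESeq2 (version 1.42.0), which was run as an alternative, as was limma (version 3.58.1). For measures of whole libraries, an exact permutation test (two-sided) was used. Single pools are the replicates, and the test was checked on simulated counts with known changes. Within-animal differences used a pseudocount of 1 CPM. Pools of the same mouse come from the same animal by their labels; the correlation of their deviations from the group means was 0.0089 to 0.094 over 5 pairs, 0 of them over 0.1. No library was a copy of another (highest correlation of log2(count + 1) 0.908 over 66 pairs).

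Named genes are Serpine3, Tubb4a and Upk1b, all called genes, the 10 highest and 10 lowest genes that were not called but did not overlap and reached 10 CPM, the 10 highest in CPM of each group, the 10 highest held within a 2-fold range, members of described lists, and genes with at least 10 counts in all libraries of a group and at most 3 in each of the other. Members and lists were chosen with earlier results of these data known. The run limit of 28, the 3 classes, the sequence family (at least 20% of 31-base words shared), the motifs, the fits within runs of animal numbers, the bias-adjusted fit, genes at an adjusted p under 0.1 and genes named for their within-animal differences or their correlation with Ddx23 were chosen after values were seen. A few genes are not reported here.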

Additional observations from a re-analysis of the deposited data

Results flagged for a closer look

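Among 100 groups of 6 values of named genes, 12 held a library that stood apart from the other 5 by Dixon's criterion at the 95% level. For independent groups of normal values the rate is about 1 in 20. These genes were named for their differences or level and several move together, so that rate is no measure of chance here. In 10 of the 12 the library was central mouse 5, as the highest of the central libraries. Its values were 200000 CPM for Ddx23 (next 66500), 35660 CPM for mt-Nd5, 237.1 CPM for Gm20594, 109.2 CPM for Mlst8, 93.5 CPM for Klhl32, 79.33 CPM for Acy3, 67.78 CPM for D17H6S53E, 57.97 CPM for Frat1, 44.68 CPM for D630003M21Rik and 43.37 CPM for Calcrl. This library had the fewest genes with at least 10 counts (5392) and the lowest TMM factor (0.47). The other 2 were Bcan in central mouse 1, at 18.77 CPM with the next central library at 0.0931 CPM, and Upk3b in central mouse 4, at 37.33 CPM with the next at 0.91 CPM.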

How the results depend on the processing

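Counts of genes called higher and lower in GFP+-RPE, 7 and 1, were 161 and 388 with DESeq2, 48 and 118 with the bias-adjusted quasi-likelihood fit (chosen after seeing the data), 17 and 6 with limma voom and sample weights, 25 and 63 without the filter, and 27 and 82 with the peripheral GFP–-RPE libraries in the fit. Over the 12 fits without 1 library they ranged from 4 to 32 and from 0 to 79, with the highest of both without central mouse 2. Within mice 1 to 3 they were 3 and 0 and within mice 4 to 7 they were 1 and 0 (chosen after seeing the data), with 351 and 175 lower genes at an unadjusted p under 0.05 in these edgeR fits. At an adjusted p under 0.01 with a log2 fold change beyond 1 they were 4 and 0, and at an adjusted p under 0.1 they were 33 and 80. The legacy setting listed as an alternative is the default of this edgeR version and is the fit reported. The cause of these differences was not tested; within runs and without a library, fewer libraries were fitted. In the fits with more than 50 lower calls, the 3 classes held 29.4% (DESeq2) to 91.8% of them, against 0 of 6 with limma voom.

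With the mouse as a replicate block, 9 genes were called higher and 73 lower, and 5 of the 8 genes called kept their call. The median log2 fold change of all genes, 0.001 in the fit reported, was 0.57 with the block and 0.22 with limma voom. It was −0.21 without the filter and −0.43 with DESeq2, both over more genes, low ones included.

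Of named genes, Rgr was at −0.046 within mice 4 to 7, and Arl6ip1 at −0.041 with limma voom and −0.026 within mice 1 to 3, each against the sign in the fit reported. The excess of detected genes in GFP+-RPE, 1666, ranged from 1176 to 2187 when 1 library was left out, and it passed the test without central mouse 1 (2042) or central mouse 2 (2187). With genes of at least 1 count in place of 10, the excess was 12.5 (exact permutation p = 0.989). The difference in the share of the 100 highest genes, −14.8 percentage points, was −17.0 to −11.5 when 1 library was left out and −3.95 without mitochondrially encoded genes, where it did not pass. Genes of like direction in all 5 mice, 120 and 138, were 667 and 429 when any difference counted and 32 and 82 with a pseudocount of 10 CPM. Low counts limited what could be shown for genes under 10 CPM.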

Other observations

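Further genes, chosen after their values were seen, had no overlap between the pools without passing the test. Npc2, the lysosomal cholesterol carrier, was at 510 to 753 CPM in GFP+-RPE against 74.4 to 501 CPM in central GFP–-RPE (log2 fold change 0.95, 95% interval 0.27 to 1.63, edgeR adjusted p = 0.388). Aldoc, a glycolytic aldolase of brain and retina, was at 37.1 to 116 CPM and 0 to 27.2 CPM (1.99, −0.21 to 4.18, adjusted p = 0.967). On the other side, Mif, a cytokine and tautomerase, was at 643 to 977 CPM and 1107 to 1372 CPM (−0.66, edgeR adjusted p = 0.150), and Ftl1, the light chain of ferritin, was at 2312 to 3166 CPM and 3182 to 4013 CPM (−0.27, adjusted p = 1.00). Dsp, desmoplakin of cell junctions, was at 4.60 to 47.1 CPM and 52.7 to 123 CPM (−1.72, adjusted p = 0.443).

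Of 11 tubulins tested, Tubb4a was the 1 called higher by edgeR, beside 0.0754% of all genes tested. Tubb4b, the beta-tubulin nearest to it by name, was at 195 to 319 CPM in GFP+-RPE against 193 to 311 CPM in central GFP–-RPE (log2 fold change −0.01, 95% interval −0.50 to 0.48), and Tuba1b at 627 to 1035 CPM and 479 to 984 CPM (0.45, −0.06 to 0.95). Among serpins other than Serpine3, which carries the reporter used to pick the cells, Serpinh1, a collagen chaperone, was at 18.9 to 48.1 CPM and 17.3 to 53.4 CPM (0.06, −1.08 to 1.20).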
